A study of Mus musculus with 6 samples.

Results

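The 49 genes described here drive or carry out DNA replication and mitosis, and were measured in colonic epithelial cells of mice with and without the glucocorticoid receptor gene Nr3c1. They were taken by symbol from a list of replication and mitosis genes, out of 23725 genes in the deposited table, and all 49 were found there and passed the filter on low values. Both groups were of the C57BL/6J background and received tamoxifen intraperitoneally on 5 consecutive days, with cells taken 7 days after the first injection and enriched on a Percoll gradient without culture. The wild-type group had 3 libraries, and the knockout group, labelled B6-Cg-Nr3c1-Vil-Cre/ERT2 (Nr3c1IEC-/-), also had 3. Its tamoxifen-inducible Cre is driven by the villin promoter, which is active in intestinal epithelium. Age, sex and the transgene status of the wild-type animals are not in the labels.

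Cells preparing to divide load the ring-shaped MCM helicase onto replication origins in G1, a step called licensing, and fire those origins in S phase under cyclin-dependent kinases. They then condense and separate the copied chromosomes in mitosis. The genes for replication are largely switched on before S phase by E2F transcription factors, whereas many mitotic genes are switched on later through the MuvB-containing complexes with B-Myb and FoxM1. In the colon, division takes place in the lower crypt, and cells leave the cycle as they move towards the surface. By their roles, 22 of the 49 genes were classed as S-phase genes, 21 as mitotic and 6 as regulators of the step from G1 to S.

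Recovered reads numbered 10089313 to 12030844 per library. Values are reads divided by the authors' size factor for each library, here called normalised reads. A log2 change is knockout minus wild type on log2(value + 1), and a gene is said to have risen or fallen where its limma adjusted p was under 0.05. Nr3c1 fell (log2 change -2.03, SE 0.60, limma adjusted p = 0.0372), from 1119.8, 967 and 197 normalised reads in wild type replicates 1, 2 and 3 to 145, 123 and 175 in knockout replicates 1, 2 and 3. Its level in the library labelled wild type replicate 3 thus lay near the knockout levels, contrary to the label, and all directions below count that library as wild type. The 9 epithelial markers, among them Epcam, Cdh1 and Vil1, had no value of 0 in any library. They summed to 206550 to 238560 normalised reads in wild type and 223150 to 258050 in the knockout. Of the 9, 2 rose and 2 fell, beside 15.0% and 15.4% of all genes tested. The markers called in either direction were Krt20, Vil1, Cdx1 and Cdx2. The 16 myeloid markers summed to 694 to 1372 in wild type and to 3619 to 8967 in the knockout, highest in knockout replicate 1. Of 15 tested 12 rose, beside 15.0% of all genes tested, and 1 marker was at 0 in each library. The 14 lymphocyte markers in the table summed to 81.2 to 209 and 187 to 508, with 0 to 2 of them at 0 in a library, and the 12 stromal and endothelial markers to 574 to 1107 and 779 to 2635, with 0 to 2 at 0. The part of these other cells in the results below was not tested. In bulk libraries, more dividing cells and more of such RNA per dividing cell cannot be told apart.

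Promoter windows of some of these genes are printed here, and the first 4 below belong to the genes with the smallest p that had an entry in the RefSeq promoter table of GRCm38.p6. Each window runs from 250 bases before to 50 after an annotated start, written 5′ to 3′ on the gene's strand. Mcm5 and Top2a were added after the motif counts were seen, as examples of an S-phase and a mitotic promoter. Capitals mark matches on either strand to an E2F-type site (the letters TTCCCGC, the variant TTGGCGC or the further variant TTCGCGC), to the CCAAT box bound by NF-Y (CCAAT), to the cell cycle homology region or CHR, the MuvB element of mitotic genes (TTTGAA), or to the palindromic glucocorticoid receptor motif (AGAACA followed after 3 free bases by its reverse complement). Matches may overlap one another, as the CHR and a CCAAT box do in Cdca8.
Fen1, chr19:10203872-10204171, minus strand: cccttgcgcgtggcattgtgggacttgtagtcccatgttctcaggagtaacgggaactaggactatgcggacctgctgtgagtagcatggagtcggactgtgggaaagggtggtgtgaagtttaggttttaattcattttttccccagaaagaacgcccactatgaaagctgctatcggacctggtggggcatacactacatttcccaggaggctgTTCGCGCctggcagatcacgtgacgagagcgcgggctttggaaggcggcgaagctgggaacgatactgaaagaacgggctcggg
Rrm2, chr12:24708004-24708303, plus strand: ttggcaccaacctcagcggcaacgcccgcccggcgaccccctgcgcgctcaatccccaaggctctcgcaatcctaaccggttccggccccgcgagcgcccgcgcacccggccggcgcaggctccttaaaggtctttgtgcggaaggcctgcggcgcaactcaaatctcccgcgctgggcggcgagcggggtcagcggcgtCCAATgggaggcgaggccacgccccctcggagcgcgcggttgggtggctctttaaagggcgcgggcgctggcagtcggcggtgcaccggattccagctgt
Birc5, chr11:117848987-117849286, plus strand: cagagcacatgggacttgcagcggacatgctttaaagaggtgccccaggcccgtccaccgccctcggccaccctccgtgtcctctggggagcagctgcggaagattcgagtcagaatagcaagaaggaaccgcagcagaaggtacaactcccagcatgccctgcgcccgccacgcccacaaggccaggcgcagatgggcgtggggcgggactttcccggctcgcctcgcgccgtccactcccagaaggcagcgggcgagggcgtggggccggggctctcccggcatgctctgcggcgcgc
Cdca8, chr4:124936868-124937167, minus strand: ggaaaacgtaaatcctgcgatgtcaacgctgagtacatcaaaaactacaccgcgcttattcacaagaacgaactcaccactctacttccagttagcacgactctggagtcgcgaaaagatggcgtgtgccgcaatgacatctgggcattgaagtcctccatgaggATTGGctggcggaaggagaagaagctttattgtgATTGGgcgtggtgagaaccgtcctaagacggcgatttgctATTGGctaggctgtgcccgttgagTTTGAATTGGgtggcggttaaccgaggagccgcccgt
Mcm5, chr8:75109259-75109558, plus strand: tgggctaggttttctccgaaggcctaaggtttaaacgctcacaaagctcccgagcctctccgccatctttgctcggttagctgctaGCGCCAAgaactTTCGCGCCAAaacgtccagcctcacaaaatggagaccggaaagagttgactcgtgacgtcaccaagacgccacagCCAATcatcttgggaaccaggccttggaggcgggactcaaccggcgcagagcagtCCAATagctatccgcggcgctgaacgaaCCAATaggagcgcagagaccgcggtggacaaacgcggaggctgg
Top2a, chr11:99024140-99024439, minus strand: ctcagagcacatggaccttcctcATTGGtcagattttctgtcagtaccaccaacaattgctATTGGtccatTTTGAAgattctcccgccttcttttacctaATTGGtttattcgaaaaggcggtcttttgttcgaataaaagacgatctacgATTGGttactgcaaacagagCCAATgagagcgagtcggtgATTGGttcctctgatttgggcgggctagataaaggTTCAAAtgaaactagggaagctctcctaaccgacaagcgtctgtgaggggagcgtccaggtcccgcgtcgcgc

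The Birc5 window held no match, that of Rrm2 held 1 CCAAT box, that of Cdca8 4 CCAAT boxes and 1 CHR match, and that of Fen1 1 E2F-type site. A further Fen1 window at chr19:10204344-10204643 held 1 CHR match. The Mcm5 window held 3 E2F-type matches, of which 2 overlap, and 3 CCAAT boxes, and the Top2a window 6 CCAAT boxes and 2 CHR matches. Promoters were on hand for 39 of the 49 genes, in 43 windows, and those without an entry were Aurkb, Ccna2, Ccnd1, Ccne2, Foxm1, Gins1, Gins2, Mcm4, Pole and Tpx2.

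Motif content differed between the S-phase and the mitotic genes. An E2F-type site was found in 13 of 22 S-phase windows (59.1%) and 3 of 17 mitotic windows (17.6%), beside 13.9% of the 12960 windows of all genes tested and 8.07% of all promoters. The CHR was the reverse, in 3 of 22 S-phase windows (13.6%) and 13 of 17 mitotic windows (76.5%), with 12.4% among genes tested and 17.9% of all promoters. A CCAAT box was in 59.1% of S-phase and 94.1% of mitotic windows, against 38.0% and 37.4%. The windows of the genes that rose and of those that did not pass the threshold held these motifs at 45.5% and 37.5% for E2F-type sites, 72.7% and 68.8% for CCAAT and 27.3% and 40.6% for the CHR, over 11 and 32 windows. The glucocorticoid receptor motif was found in none of the 43 windows and in 0.0154% of windows of genes tested. These are letter matches in short windows and not measured binding.

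**Figure D1:**
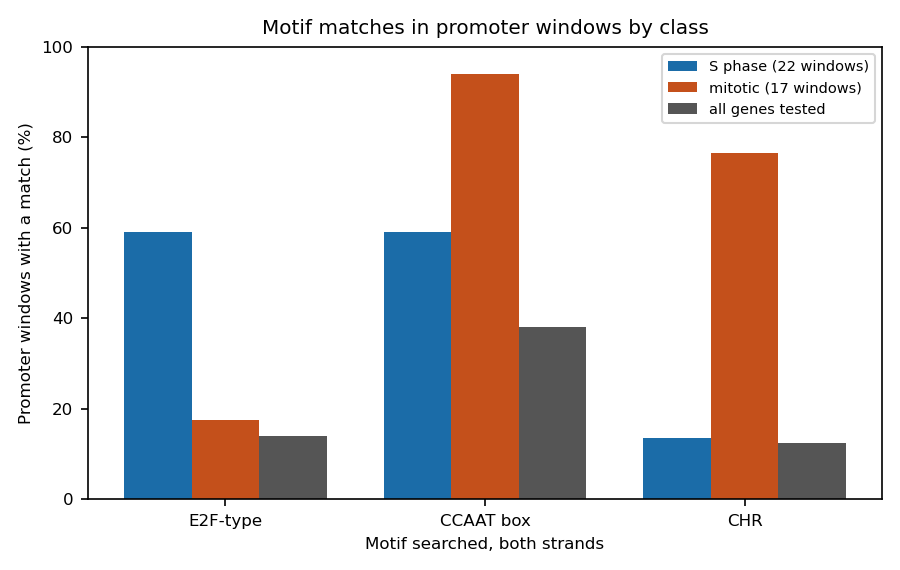
Share of promoter windows (y axis, percent) with at least 1 match to each motif (x axis) for S-phase genes, mitotic genes and all genes tested. E2F-type sites are most frequent in the S-phase windows (59.1%), and the CHR (76.5%) and the CCAAT box (94.1%) in the mitotic windows.

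All 49 genes had a positive log2 change in the knockout, but the threshold was passed by 12, and none fell. Of all 12837 genes tested, 15.0% rose and 15.4% fell, and 50.7% had a positive change. The genes that rose were Mcm3, Mcm5, Gins2, Rrm1, Rrm2 and Fen1 of S phase and Ccna2, Ccnb1, Bub1, Birc5, Cdca8 and Top2a of mitosis. The median log2 change over the 49 genes was 0.80, a 1.74-fold higher level, against 0.01 over all genes tested. In 25 of the 49, all 3 knockout libraries were above all 3 wild-type libraries, against 25.2% of genes tested, and in none were they all below, against 25.5%. At an unadjusted limma p under 0.05 were 28 of the 49. Of all genes tested at least 30.5% were under that level in either direction, since that share passed even after adjustment.

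**Figure D2:**
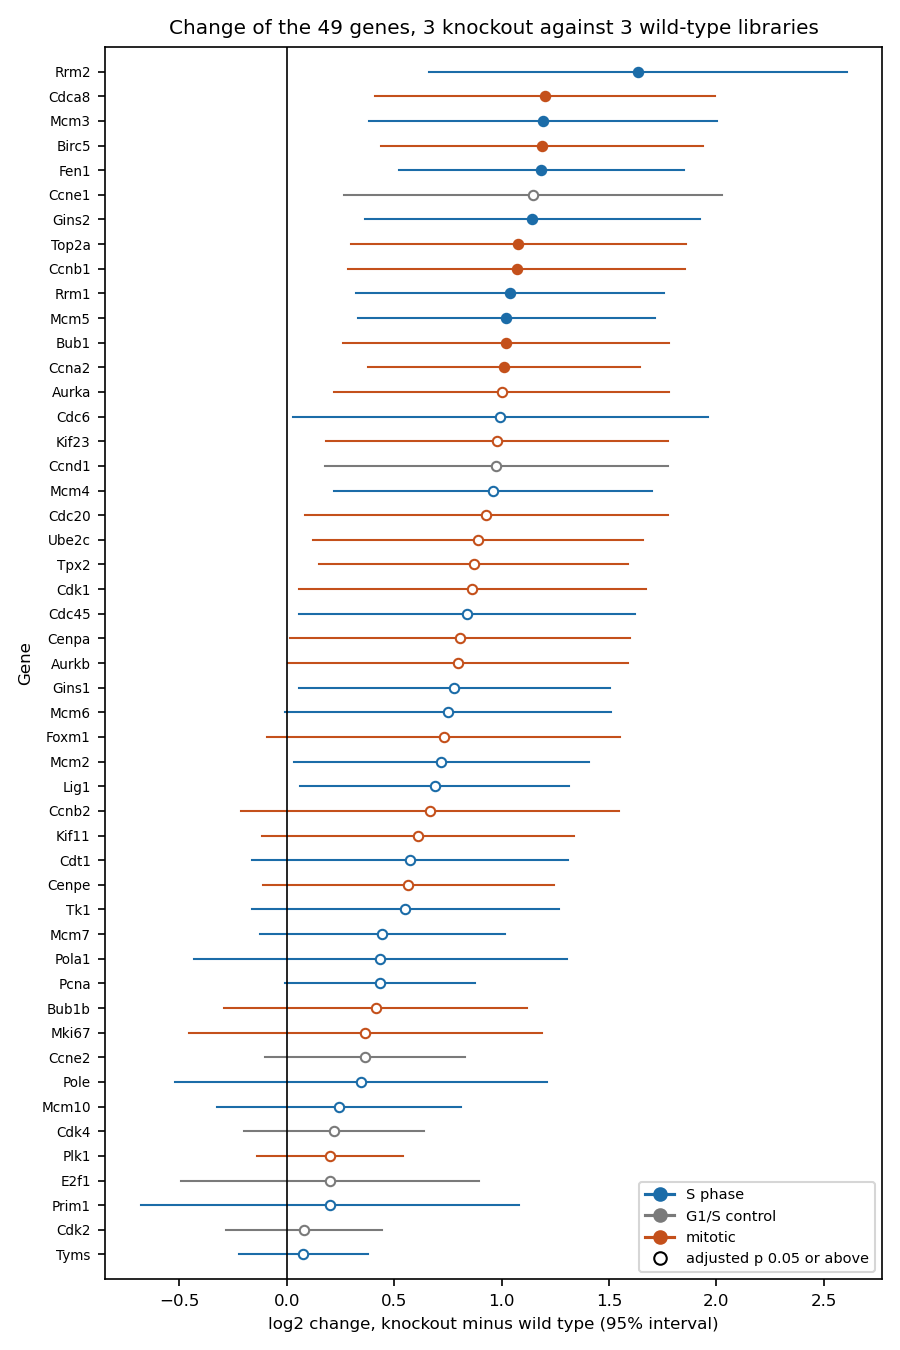
log2 change of each gene (x axis, knockout minus wild type, with its 95% interval) in order of size, coloured by class. Filled points mark the 12 genes with a limma adjusted p under 0.05, and every point lies to the right of 0.

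The count of 12 changed with single libraries of both groups. No gene passed when wild type replicate 1 or 2 was set aside, a count of 0 in each case, where 7.56% and 7.77% of all genes rose. At an unadjusted limma p under 0.05 were then 24 and 14 of the 49, all with positive changes, and no other tool was run on these subsets. The share of all genes at that unadjusted level is not given here. The median log2 changes of the S-phase and mitotic genes were 0.82 and 1.04 without wild type replicate 1, above the 0.74 and 0.87 with all libraries, and 0.43 and 0.52 without wild type replicate 2. The calls were thus lost with larger changes in the first case and smaller ones in the second. Leaving out knockout replicates 1, 2 and 3 in turn gave 3, 5 and 11, against 12.3%, 13.9% and 12.5% of all genes. The class medians without knockout replicate 1 were 0.52 and 0.64. Leaving out the library labelled wild type replicate 3 gave 15, among them all 12, against 12.6% of all genes. None of the 49 fell in any of these fits, where 7.42% and 7.5% of all genes fell without wild type replicates 1 and 2. Rrm2 and Fen1 passed in 4 of these 6 fits, Ccna2 in 3, and the other 9 in 1 or 2.

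**Figure D3:**
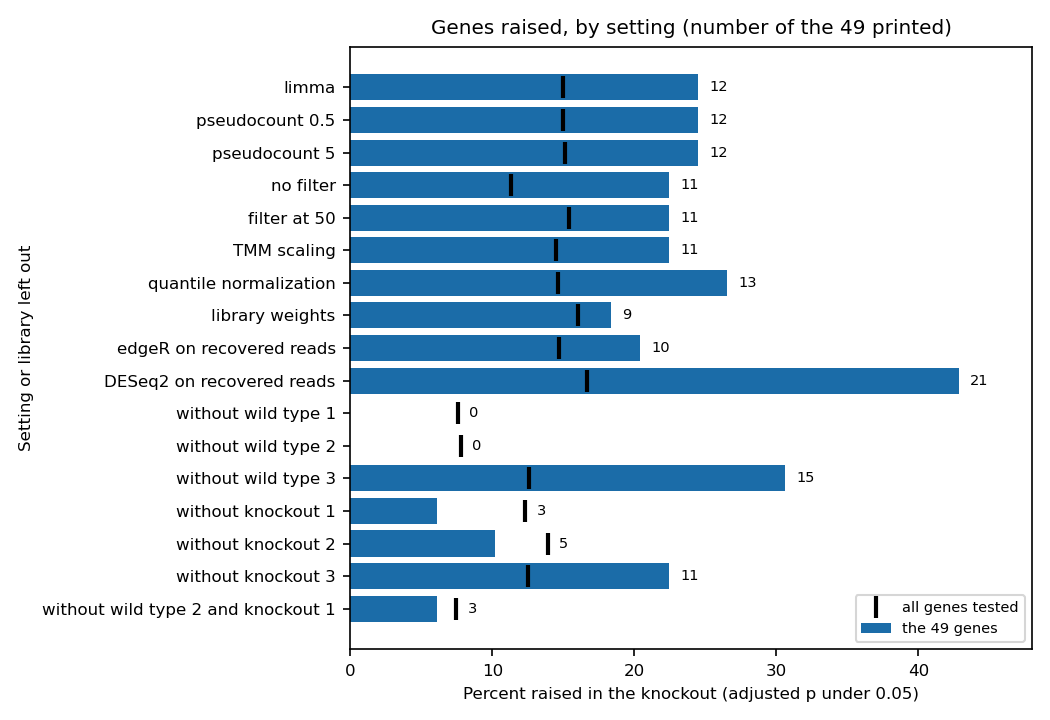
Percent of the 49 genes that rose in the knockout (bars, with the number printed) under each setting or with libraries left out, with the percent of all genes tested that rose as a black mark. The count is 12 with all libraries, 0 without wild type replicate 1 or 2, and 15 once the library labelled wild type replicate 3 is dropped.

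The subunits of the MCM helicase, which unwinds DNA ahead of the fork, fell into 2 that rose and 4 that did not pass the threshold. Mcm5 had 393, 241 and 459 normalised reads in wild type against 1014, 688 and 524 in the knockout (log2 change 1.02, SE 0.30, limma adjusted p = 0.0363). Mcm3 had 256, 131 and 338 normalised reads in wild type against 696, 478 and 409.6 in the knockout (log2 change 1.19, SE 0.35, limma adjusted p = 0.0365). For both genes all knockout libraries were above all wild-type ones, with wild type replicate 2 lowest and knockout replicate 1 highest. Mcm4 was also without overlap between the groups but missed the threshold (log2 change 0.96, SE 0.32, limma adjusted p = 0.0553). Mcm2, Mcm6 and Mcm7 had log2 changes of 0.72, 0.75 and 0.45 with adjusted p from 0.0987 to 0.197, and in each of them knockout replicate 3 lay below the library labelled wild type replicate 3. The ring is built from 1 copy of each subunit, and the 6 transcripts kept the same order of libraries at the extremes, since wild type replicate 2 was lowest and knockout replicate 1 highest for all 6.

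Among the genes for licensing and firing origins only Gins2, a subunit of the GINS part of the active helicase, passed the threshold. It had 83.8, 41.1 and 96.5 normalised reads in wild type against 189.7, 162 and 119 in the knockout (log2 change 1.14, SE 0.34, limma adjusted p = 0.0372). Of its exon bases 70.7% are shared with exons of Gse1 on the opposite strand, so in these non-stranded libraries its reads are uncertain, and Gse1 itself fell (log2 change -0.43). Gins1, another GINS subunit, did not overlap between the groups either, at 34, 20.5 and 37.3 normalised reads in wild type against 69.2, 48.6 and 41.1 in the knockout (limma adjusted p = 0.0929). Cdt1, the licensing factor that is destroyed after origins fire, had 157, 96.8 and 179 normalised reads in wild type against 302, 207 and 145 in the knockout (limma adjusted p = 0.196). Its knockout replicate 3 value lay within the wild-type range. Cdc6, which loads the helicase with Cdt1, and Cdc45, the partner of GINS, had log2 changes of 0.99 and 0.84 with adjusted p = 0.104 and 0.094 from limma. Mcm10 was nearest to no difference in this set, at 0.24 (95% interval -0.32 to 0.81).

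The supply of deoxynucleotides showed the largest and the smallest change of all 49 genes. Rrm2, the ribonucleotide reductase subunit whose level limits the enzyme through the cell cycle, had 223, 142 and 339.7 normalised reads in wild type replicates 1, 2 and 3 and 1215, 613 and 435 in knockout replicates 1, 2 and 3. Its log2 change was 1.63 (SE 0.42, limma adjusted p = 0.0235), and knockout replicate 1 was far above the other 2 knockout libraries, which were still above every wild-type value. Rrm1, the large subunit of the same enzyme, had 461, 267 and 608 normalised reads in wild type against 1136, 842 and 681 in the knockout (log2 change 1.04, SE 0.31, limma adjusted p = 0.0384). Tyms, which makes thymidylate for DNA, had 745, 742 and 882 normalised reads in wild type against 761, 788 and 953 in the knockout. The Tyms groups overlapped and were nearly level, with a log2 change of 0.08 and a 95% interval of -0.22 to 0.38. Tk1, the thymidine salvage kinase, had a log2 change of 0.55 (limma adjusted p = 0.201).

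At the replication fork, Fen1, the flap endonuclease that trims Okazaki fragments, had the smallest adjusted p of the 49 genes. It had 141, 95.8 and 168 normalised reads in wild type replicates 1, 2 and 3 and 434, 273 and 228 in knockout replicates 1, 2 and 3 (log2 change 1.19, SE 0.29, limma adjusted p = 0.019). The groups did not overlap, but 78.8% of its exon bases lie under the antisense gene Gm10143, and reads from the 2 cannot be separated here. Lig1, the ligase that seals those fragments, did not overlap between groups and missed the threshold (log2 change 0.69, limma adjusted p = 0.0876). Pcna, the sliding clamp that holds polymerases on DNA, had 1009, 797 and 1137 normalised reads in wild type against 1583, 1379 and 1035 in the knockout. Its change was 0.43 (limma adjusted p = 0.118), and knockout replicate 3 lay within the wild-type range. Pola1, Prim1 and Pole, of the priming and leading-strand polymerases, had log2 changes of 0.44, 0.20 and 0.35, with 95% intervals from -0.68 to 1.30.

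None of the 6 regulators of the G1 to S step passed the limma threshold, where 15.0% of all genes rose, and their median log2 change was 0.29. The 2 at an unadjusted limma p under 0.05 were Ccnd1 and Ccne1. DESeq2 called 2 of the 6 raised and edgeR 0, where 16.7% and 14.7% of all genes rose. With 1 library left out, Ccnd1 passed in 2 of 6 fits, without knockout replicates 1 and 2 (limma adjusted p = 0.0398 and 0.033). Ccne1 passed in 1 of them, the fit without knockout replicate 3 (limma adjusted p = 0.0364). In those fits 12.3%, 13.9% and 12.5% of all genes rose. Ccnd1, the cyclin D1 gene that links growth signals to the cycle, had 1074, 818 and 1100.1 normalised reads in wild type replicates 1, 2 and 3 and 3565, 1338 and 1545 in knockout replicates 1, 2 and 3. All its knockout values were above the wild-type ones, and knockout replicate 1 was far above the other 2 (log2 change 0.98, limma adjusted p = 0.0653). Ccne1, a cyclin that activates Cdk2 at the start of S phase, also showed no overlap, at 60.5, 32.3 and 71.9 normalised reads in wild type against 169, 124 and 75.4 in the knockout (limma adjusted p = 0.0543). Its paralog Ccne2 had a change of 0.36, and the kinases Cdk4 and Cdk2 had 0.22 and 0.08. E2f1, the transcription factor of the replication genes, had 74.3, 46 and 70.1 normalised reads in wild type against 99.6, 71.4 and 51.6 in the knockout, a change of 0.20 with a 95% interval of -0.49 to 0.89. Exons of LTO1 and Tspan31 on the opposite strand share 21.9% of the Ccnd1 and 31.2% of the Cdk4 exon bases.

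Ccna2 and Ccnb1 were the genes that rose among the 8 regulators of the G2 to M step. Ccna2, the cyclin of S phase and G2, had 663, 379 and 789 normalised reads in wild type against 1475, 1094 and 1015 in the knockout (log2 change 1.01, SE 0.27, limma adjusted p = 0.0279). Ccnb1, the cyclin that starts mitosis, had 307, 143 and 348 normalised reads in wild type against 691, 454 and 453 in the knockout (log2 change 1.07, SE 0.34, limma adjusted p = 0.0466). In both, wild type replicate 2 was the lowest library and the groups did not overlap. Exons of Exosc9 on the opposite strand share 10.4% of the Ccna2 exon bases. Ccnb2, the other B-type cyclin, overlapped between groups, at 395, 138 and 372 normalised reads in wild type against 517, 385 and 409 in the knockout (limma adjusted p = 0.208). Cdk1, the kinase they activate, and the kinase Aurkb were without overlap, with log2 changes of 0.86 and 0.80 and adjusted p of 0.0942 and 0.11 from limma. The kinase Aurka had 201, 106 and 220.4 normalised reads in wild type against 479, 330.1 and 239 in the knockout, again without overlap (limma adjusted p = 0.0566). Plk1, the kinase of mitotic entry, had 0.20 (95% interval -0.14 to 0.54) and FoxM1's gene Foxm1 had 0.73 (limma adjusted p = 0.149).

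In the group of spindle, checkpoint and centromere genes 3 of 9 rose. Birc5 and Cdca8 encode subunits of the chromosomal passenger complex, which corrects faulty attachments of chromosomes to the spindle. Birc5, the survivin gene, had 254, 138 and 325 normalised reads in wild type against 694, 449 and 436 in the knockout (log2 change 1.19, SE 0.32, limma adjusted p = 0.0285). Cdca8, the borealin gene, had 209, 111 and 258 normalised reads in wild type against 604, 370.4 and 330.3 in the knockout (log2 change 1.20, SE 0.34, limma adjusted p = 0.0331). The knockout values of both genes were all above the wild-type values. Bub1, a kinase of the spindle checkpoint, had 107, 56.7 and 138 normalised reads in wild type against 240.1, 189 and 157 in the knockout (log2 change 1.02, SE 0.33, limma adjusted p = 0.0488), while its relative Bub1b overlapped between groups with a change of 0.41 (limma adjusted p = 0.322). Kif11, the motor that pushes spindle poles apart, had 344, 179 and 454 normalised reads in wild type against 539, 447 and 415 in the knockout (limma adjusted p = 0.168), and its knockout replicates 2 and 3 lay below the library labelled wild type replicate 3. Kif23, a motor of cytokinesis, Tpx2, a spindle assembly factor, and Cenpa, the histone of centromeres, had log2 changes of 0.98, 0.87 and 0.81 without overlap, and Cenpe, a kinetochore motor, had 0.57 with overlap. The adjusted p of these 4 from limma was 0.0644 to 0.171.

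Cdc20 and Ube2c, which direct the ubiquitination that ends mitosis, had log2 changes of 0.93 and 0.89 without overlap and missed the threshold (limma adjusted p = 0.0875 and 0.0771). Cdc20 had 421, 187 and 444 normalised reads in wild type against 912, 529 and 503 in the knockout. Of the Ube2c exon bases 22.8% are shared with exons of Tnnc2 on the opposite strand. Top2a and Mki67, both widely used marks of cycling cells, gave different results. Top2a, the topoisomerase that untangles copied chromosomes, had 863, 449 and 1002 normalised reads in wild type replicates 1, 2 and 3 and 2262, 1321 and 1226 in knockout replicates 1, 2 and 3 (log2 change 1.08, SE 0.34, limma adjusted p = 0.0452). Mki67, whose protein Ki-67 coats mitotic chromosomes, had 1839, 698 and 1666 normalised reads in wild type replicates 1, 2 and 3 and 1823, 1309.9 and 1922 in knockout replicates 1, 2 and 3. Its groups overlapped, its change was 0.37 (95% interval -0.45 to 1.19, limma adjusted p = 0.451), and wild type replicate 1 was above knockout replicates 1 and 2. The difference between the 2 genes was not tested.

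Per kilobase of exon, wild-type levels of the 49 genes ran from 10.4 normalised reads for Cdc6 and 12.4 for Pole to 267 for Ccnd1, 273 for Cdk4 and 646 for Pcna. In the knockout Pcna was at 878, Ccnd1 at 575 and Cdc6 at 20.0 on the same scale. The 12 genes that rose had wild-type levels from 18.9 (Gins2) to 168 (Ccna2).

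The spread between libraries had the same shape in almost every gene. Wild type replicate 2 was the lowest of the 6 libraries in 47 of the 49 genes, the exceptions being Cdk4 and Ccne2, against 20.0% of genes tested. Knockout replicate 1 was the highest of the 6 in 47 genes, the exceptions being Tyms and Mki67, against 30.5% of genes tested. Both held in 45 genes, against 13.2%. Within the wild-type group the library labelled wild type replicate 3 was highest in 42 genes, against 34.9%, and within the knockout group replicate 3 was lowest in 39, against 31.8%.

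**Figure D4:**
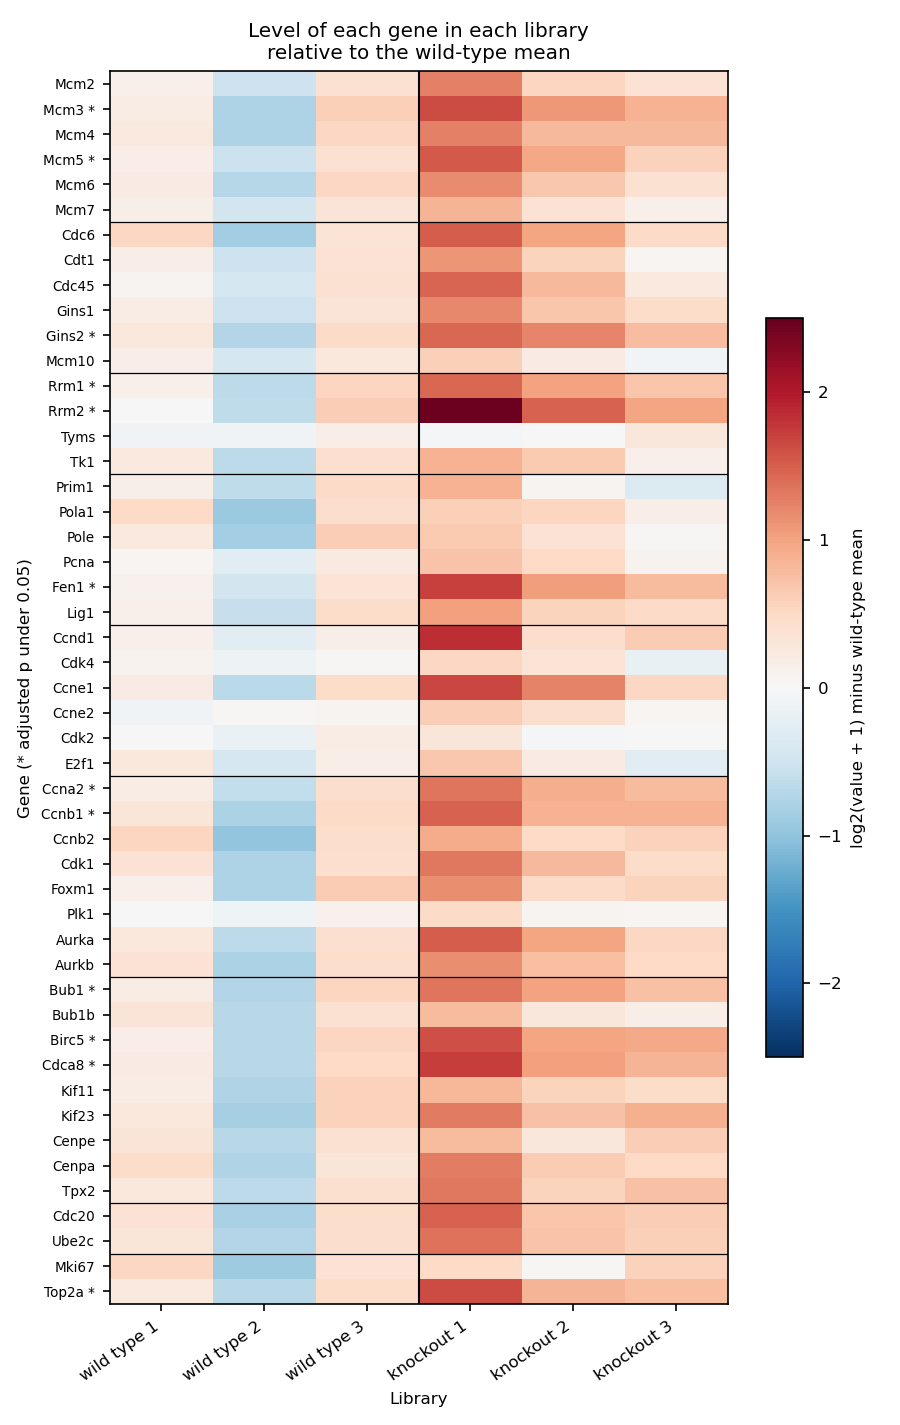
Level of each of the 49 genes (rows, grouped by role) in each library (columns), as log2(value + 1) minus the wild-type mean of that gene. The column of wild type replicate 2 is the lowest in 47 rows and that of knockout replicate 1 the highest in 47.

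Wild type replicate 2 stood at a median of 0.487 times the mean of the other wild-type libraries over the 49 genes, with a range of 0.36 to 1.02. Knockout replicate 1 stood at a median of 1.52 times the mean of the other knockout libraries, with a range of 0.874 to 2.47. The same ratios over all genes tested had medians of 1.003 and 0.994. With both of these libraries set aside, the mean of the remaining knockout libraries was a median of 1.19 times that of the remaining wild-type libraries, and 41 of the 49 ratios were above 1. Over all genes tested this ratio had a median of 1.005 and was above 1 in 6502 of 12837. In that comparison of 2 against 2 libraries, chosen after the values were seen, limma called 3 of the 49 genes, Fen1, Ccna2 and Birc5, while 7.45% of all genes rose and 7.7% fell. Knockout replicate 3 was below the library labelled wild type replicate 3 in 19 of the 49 genes, against 49.7% of genes tested.

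The median log2 change was 0.74 over the 22 S-phase genes and 0.87 over the 21 mitotic genes, a difference of -0.13. In each class 6 genes rose, beside 15.0% of all genes tested. All knockout libraries were above all wild-type ones in 9 S-phase and 14 mitotic genes, beside 25.2% of genes tested. The difference between the class medians, taken in each library against the wild-type means, was -0.10, 0.13 and -0.03 in wild type replicates 1, 2 and 3 and -0.13, -0.05 and -0.22 in knockout replicates 1, 2 and 3. These ranges overlapped between the groups, and the pooled SD between libraries of a group was 0.103, a little smaller in size than the difference of -0.13. The difference between the classes was not tested. The class medians themselves had pooled SDs of 0.47 for S phase and 0.53 for mitosis.

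**Figure D5:**
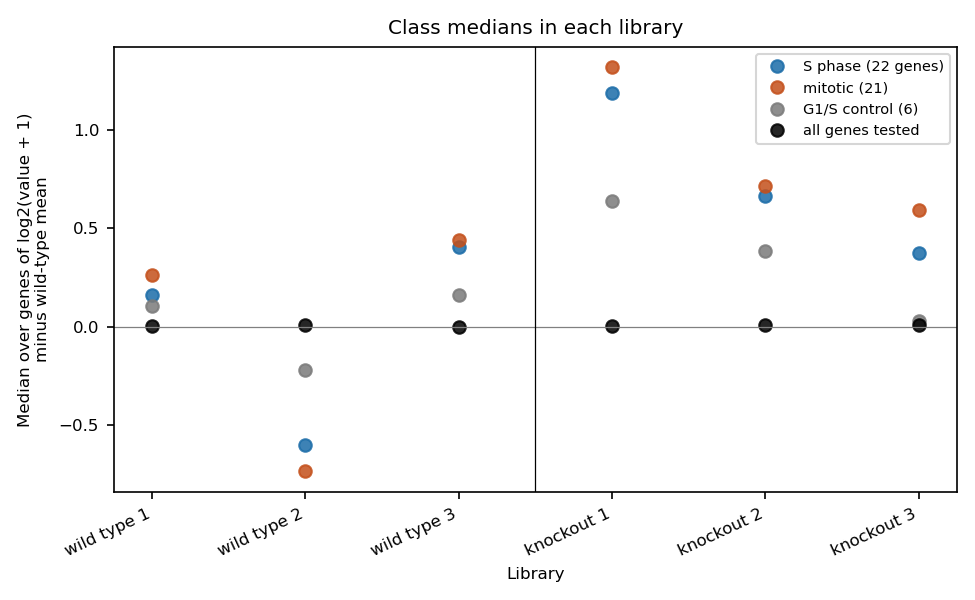
Median over the genes of each class of log2(value + 1) minus the wild-type mean (y axis) in each library (x axis). S-phase and mitotic medians lie close together in every library, lowest in wild type replicate 2 (-0.60 and -0.74) and highest in knockout replicate 1 (1.19 and 1.32), while the median of all genes stays near 0.

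The scatter of the genes between libraries is given by class, with no test between classes. In 20 of the 21 mitotic genes the SD of log2 values was larger among wild-type than among knockout libraries, with medians of 0.65 and 0.35. For S-phase genes the medians were 0.55 and 0.38, and 14 of 22 had the larger SD in wild type. For the regulators of the G1 to S step they were 0.20 and 0.41, with the larger SD in the knockout in 5 of 6. Over all genes tested the SD was larger in the knockout in 8248 of 12837, so most genes shared the direction of most of these 6 regulators. Over all genes tested the medians were 0.17 and 0.23, while over the 49 genes together they were 0.60 and 0.37.

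Other genes of the same pathways were drawn from lists chosen with earlier results of these data known. Of 37 further replication genes 8 rose and none fell, beside 15.0% and 15.4% of all genes tested, with a median log2 change of 0.40. Pola2 and Prim2, the accessory subunits of the polymerase that primes each new strand, had 429, 452 and 572 normalised reads in wild type against 1295, 804 and 958 in the knockout for the first (log2 change 1.06, SE 0.19, limma adjusted p = 0.00727) and 78.5, 36.2 and 75.6 normalised reads in wild type against 167, 146 and 135 in the knockout for the second (log2 change 1.29, SE 0.30, limma adjusted p = 0.017). Both passed the threshold whichever single library was left out, and also with wild type replicate 2 and knockout replicate 1 both left out. The catalytic subunits of that polymerase, Pola1 and Prim1, had changes of 0.44 and 0.20 and did not pass, and the difference was not tested. Orc2, of the origin recognition complex, rose from 139.6 ± 2.92 to 225 ± 41.1 normalised reads (mean ± SD, n = 3). With wild type replicate 1 or 2 left out only Pola2 and Prim2 of the 8 passed, and without knockout replicates 1, 2 and 3 the numbers raised in the list were 4, 3 and 5, with 1 gene, Rfc2, lowered without knockout replicate 1 and named here after its values were seen. Leaving out the library labelled wild type replicate 3 gave 7 raised. In the same order of libraries, 7.56%, 7.77%, 12.3%, 13.9%, 12.5% and 12.6% of all genes rose. Without knockout replicate 1, 12.9% of all genes fell.

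Of 49 further mitosis genes 7 rose and 1 fell, with a median log2 change of 0.63 against 0.01 over all genes tested. The number raised was near the share over all genes, 15.0%, and the number lowered was below the 15.4% over all genes. Cdc25b, the phosphatase that activates Cdk1, rose from 211 ± 39.3 to 333 ± 27.7 and Incenp, another chromosomal passenger subunit, from 320.5 ± 62.6 to 496 ± 43.2 (limma adjusted p = 0.0214 and 0.0248). Pttg1, the securin gene, fell from 226 ± 28.3 to 138 ± 26.7 (limma adjusted p = 0.0236). Leaving out wild type replicates 1 and 2 in turn gave 2 and 0 raised, leaving out the library labelled wild type replicate 3 gave 14, and leaving out knockout replicates 1, 2 and 3 gave 1, 3 and 2. In the same order of libraries, 7.56%, 7.77%, 12.6%, 12.3%, 13.9% and 12.5% of all genes rose. The fall of Pttg1 was lost without any 1 of the wild-type libraries and without knockout replicate 3. In this list too, wild type replicate 2 was the lowest of 6 libraries in 46 of 49 genes and knockout replicate 1 the highest in 45. Over all genes tested the shares were 20.0% and 30.5%.

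Of 18 transcription factors of the cycle and their partners 3 rose and 3 fell, shares near the 15.0% raised and 15.4% lowered over all genes tested. E2f2, an activating E2F, rose from 516 ± 76.4 to 868 ± 80.1, and Lin54, the DNA-binding subunit of MuvB, from 219 ± 46.3 to 378 ± 37.5 (limma adjusted p = 0.00706 and 0.0123). Tfdp2, a dimer partner of E2F proteins, fell from 477 ± 18.4 to 281 ± 31.6 (limma adjusted p = 0.00474). Mybl2, the gene of B-Myb, also rose, and is named here because B-Myb is named above. E2f2 and Tfdp2 kept their calls in all 6 fits with a library left out, while Lin54 and Mybl2 lost theirs when wild type replicate 1 or 2 was dropped. Of the 18 genes, 1 rose and 2 fell when wild type replicate 1 was dropped, and 1 rose and 1 fell when replicate 2 was. In those fits 7.56% and 7.77% of all genes rose, and 7.42% and 7.5% fell.

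Among 7 inhibitors of cyclin-dependent kinases 6 were tested, of which 1 rose and 1 fell, near the 15.0% and 15.4% over all genes tested. Cdkn1c, which encodes p57, rose from 49.7 ± 14.7 to 100.2 ± 25.8 and Cdkn2b, which encodes p15, fell from 689 ± 86 to 439 ± 116 (limma adjusted p = 0.0292 and 0.0419). Both calls were lost when wild type replicate 1 was left out, and likewise for the library labelled wild type replicate 3. Cdkn1c lost its call also without knockout replicate 2, and of the 6 fits with a library left out Cdkn2b kept its call in that one alone. Cdkn1b, the p27 gene, had 515, 651 and 468 normalised reads in wild type against 346, 444 and 446 in the knockout, a change of -0.40 with a limma adjusted p = 0.101. Of 7 further G1 cyclins and kinases 1 rose, near the 15.0% of all genes, namely Skp2, whose protein targets p27 for destruction, from 30.5 ± 5.16 to 68.2 ± 23.6 (limma adjusted p = 0.0363). That call held in 1 of the 6 fits with a library left out, the one without knockout replicate 3.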

How the data were processed

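RNA was sequenced from Percoll-enriched colonic epithelial cells in 3 wild-type and 3 Nr3c1 knockout samples, per the labels' protocols, as non-stranded mRNA libraries. Per the submitters' processing notes, reads were processed with FastQC, TopHat, DESeq2 and the build mm10, without versions; how genes were counted, and on which annotation, was not stated. The deposited signal is the authors' read count per gene after division by a library size factor. In every column 100% of values were whole multiples of 1 step within 0.001, so whole reads were recovered. Entrez numbers were matched to symbols with RefSeq's GRCm38.p6 table (23666 of 23725).

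limma 3.58.1 (R 4.3.3, trended prior, two-sided) was run on log2(value + 1) for the 12837 genes at 10 or more in at least 3 libraries, with Benjamini-Hochberg adjustment over all of them and a threshold of 0.05. The pseudocount of 1 understates changes of low genes. The text names all members and up to 3 genes per further list, those with the smallest adjusted p, and besides them Rfc2 and Mybl2. Members and lists were chosen with earlier results of these data known, so no list has a test. Exon lengths and overlaps come from GENCODE's GRCm38 annotation, as the union of exons. Alternatives were pseudocounts, filters, scalings, library weights, edgeR 4.0.16 and DESeq2 1.42.0 on recovered reads, other class borders and leaving out libraries. The fits were tested on simulated data in which genes varied independently. That setting holds no shift of a library shared by many genes, so it cannot speak to such shifts. Replicate numbers are accession order and pair nothing. Nothing in the labels states that libraries are from separate mice, so p-values measure the spread between these samples. No batch is given.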

Additional observations from a re-analysis of the deposited data

How the results depend on the processing

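No member fell under any setting, and none of the 12 called turned its direction; some uncalled members, Prim1 and E2f1 among them, had small negative changes with a library left out. The count of members raised, 12, was 9 to 13 with other pseudocounts, filters, scalings, library weights or edgeR, where 11.3% to 16.0% of all genes rose. With DESeq2 it was 21, where 16.7% of all genes rose. With 1 library left out the count was 0 to 15, where 7.56% to 13.9% of all genes rose and all changed genes numbered 1923 to 3607 against 3910. The class medians were then 0.43 to 0.93 (S phase) and 0.52 to 1.07 (mitosis), lowest without wild type replicate 2 and highest with the library labelled wild type replicate 3 dropped. With wild type replicate 2 and knockout replicate 1 both left out, chosen after seeing the data, 1945 genes changed, 3 members rose, and the class medians were 0.21 (S phase) and 0.25 (mitosis). The S-phase minus mitotic difference was -0.22 to -0.04 over every setting run, other class borders included. The cause of these moves was not tested. The lowest member value in any library was 20.5 normalised reads.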

Other observations

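Genes of DNA repair that work at stalled or broken replication forks were described by none of the comparisons above. Of 18 in the list, 17 had a positive log2 change, against 50.7% of all genes tested, with a median of 0.55. The limma threshold was passed by 1, against 15.0% of all genes raised. That gene was Topbp1, an activator of the ATR checkpoint kinase, at 336 ± 60.7 and 504 ± 59.5 normalised reads (mean ± SD, n = 3, limma adjusted p = 0.029). The call ended when wild type replicate 1 or 2, or knockout replicate 1, was dropped. Rad51ap1 and Rad54l, partners of the recombinase of homologous repair, did not overlap between the groups and had limma adjusted p = 0.0532 and 0.0561. Rad51ap1 had 38.2, 18.6 and 28.2 normalised reads in wild type against 79.7, 53.8 and 43 in the knockout, and Rad54l had 77.5, 47.9 and 83.8 normalised reads in wild type against 133, 119 and 96.4 in the knockout. Wild type replicate 2 was the lowest of the 6 libraries in 14 of the 18 genes, against 20.0% of genes tested. Knockout replicate 1 was the highest in 12, against 30.5%. DESeq2 called 4 of the 18 raised, as did limma when the library labelled wild type replicate 3 was left out. In those fits 16.7% and 12.6% of all genes rose.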
